A study of Oryza sativa with 4 samples.

Results

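Of 55986 gene models counted in rice seedlings, 8 regulators of the root meristem and of crown roots were examined: CRL1, CRL5, WOX11, QHB, SCR1, SCR2, SHR1 and SHR2. They were taken as a fixed set of 8 loci by gene identifier. RNA-seq was performed on 7-day-old japonica seedlings of the wild type (WT, variety Dongjin) and of mre11, a T-DNA insertion mutant of the DNA repair nuclease gene Mre11. Each genotype had 2 samples, each a pool of whole plants, so root and shoot RNA were measured together. The mutant is represented by a single T-DNA line.

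In rice, most of the adult root system is made of crown roots, which arise from stem nodes and begin with divisions in the stem that are promoted by auxin. CRL1, a LOB-domain transcription factor, and CRL5, an AP2-domain factor, act downstream of auxin response factors in crown root initiation, while the homeobox factor WOX11 promotes crown root emergence and growth. Inside the root tip, QHB, a homeobox factor related to WOX5 of Arabidopsis, marks the quiescent centre, the slowly dividing cells around which the stem cells lie. In Arabidopsis, SHR moves from the stele into the neighbouring layer and activates SCR there, and this pair of GRAS-family factors specifies the endodermis and maintains the quiescent centre. SCR1 and SCR2, and SHR1 and SHR2, are the rice copies of these genes.

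The counts on genes summed to between 12753324 and 19004825 per library, with the mre11 libraries the deeper ones, and Mre11 itself had 306 and 471 counts in WT against 132 and 118 in mre11. Levels are given below as counts, as CPM (counts divided by library size, with TMM scaling as a correction for differences in library composition) and, where genes are compared with each other, as the deposited RPKM, which divides by gene length. Fold changes are mre11 over WT from the quasi-likelihood test of edgeR, with Benjamini-Hochberg adjustment over 24470 genes. A gene was called when its adjusted p was under 0.05 and its fold change at least 2. With 2 samples against 2, an exact permutation test of a single gene cannot give a p below 0.33, so each p rests on a spread that the model shares across genes. Nothing states whether the pools were grown apart, and the p-values measure only the spread between these samples.

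As markers of tissue, 9 loci taken as root-enriched and 13 taken as shoot-enriched in rice were summed. The root-enriched loci and 3 of the shoot-enriched loci came from general knowledge of rice. The other shoot-enriched loci were those with the deposited light-harvesting term. The summed root-enriched level was 68.0 and 71.1 CPM in WT and 69.5 and 64.6 CPM in mre11, and none of the 6 root-enriched loci tested was called in either direction, with DESeq2 and without a fold limit as well. The largest part of this sum came from 1 locus, LOC_Os02g51110, with 37.5 and 41.5 CPM in WT and 42.4 and 30.4 CPM in mre11. Of the 9, 2 loci, LOC_Os02g02170 and LOC_Os02g40710, had 0 counts in every library. LOC_Os02g02190 had 1 count in WT replicate 1 and 0 in every other library. The summed shoot-enriched level was 9535 and 15730 CPM in WT and 14590 and 24300 CPM in mre11. The genotypes overlapped, and the samples of 1 genotype lay far apart. In both genotypes replicate 2 was the higher, and within each replicate number the sum in mre11 was above WT. The 3 shoot-enriched loci from general knowledge, LOC_Os12g17600, LOC_Os12g19470 and LOC_Os12g19381, did not share this rise. Their log2 fold changes were -0.28, 0.01 and -0.07. Of the 12 shoot-enriched loci tested, 3 were called higher and 0 lower, or 25%, against 21.3% of all tested genes, and LOC_Os01g52240 had 0 counts in every library. Their median log2 fold change was 0.87, with 8 of the 12 above 0. The number called higher was 0 without WT replicate 1, 5 without WT replicate 2, 7 without mre11 replicate 1 and 1 without mre11 replicate 2. It was 5 with the replicate number as a block and 7 with the library size alone. The part of this difference in the results below was not tested. Both sets were thus present in every library. Because whole seedlings were sampled, fewer cells of a type and less RNA per cell cannot be told apart for any of the genes below.

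CRL5, SHR1, SCR1 and QHB were higher in mre11 and WOX11 was lower, while SCR2 and SHR2 lay above WT without being called and CRL1 was too low to test. QHB could be tested only because it was high in mre11, and it is left out of the counts that follow. Of the other 6 tested genes, 3 were called higher and 1 lower, where 12.0% of all tested genes were called higher, 9.31% lower and 21.3% in either direction. Without the fold limit, 5 of the 6 passed, against 37.1% of all tested genes. In all 6 the libraries of the 2 genotypes did not overlap, which was also the case for 73.2% of all tested genes. The median log2 fold change was 1.02 over the 6 genes and 0.03 over all tested genes. The set was chosen with earlier results of these data known, so these comparisons cannot show that it differs from other genes. Some of the calls were lost when 1 library was left out, and fewer genes were called over all tested genes as well. Without WT replicate 2, the log2 fold changes of CRL5, WOX11, SCR1 and SHR1 were 1.98, -1.28, 1.07 and 1.40. Without mre11 replicate 2, they were 1.87, -1.52, 0.941 and 1.30.

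**Figure D1:**
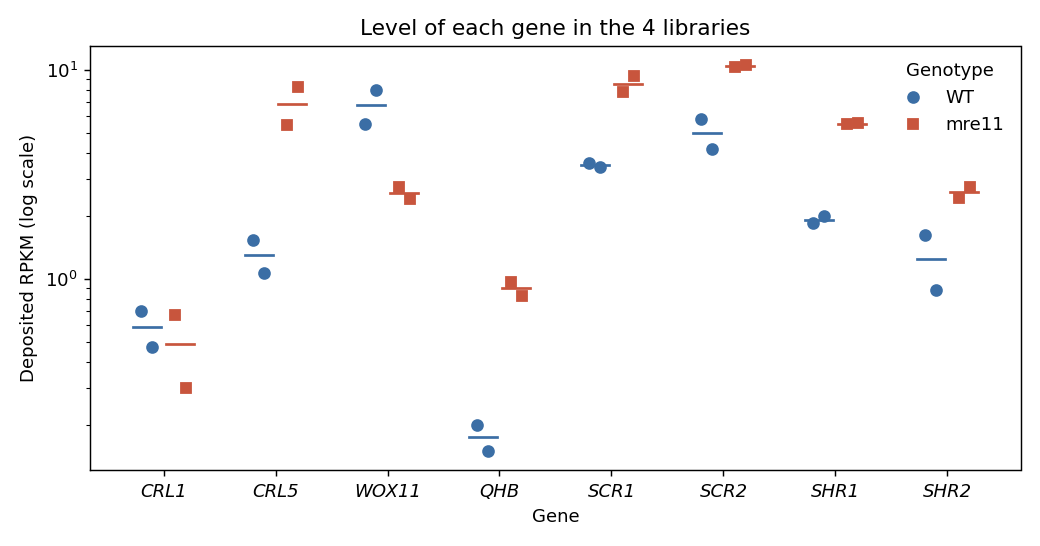
Deposited RPKM (log axis) of the 8 genes in each WT library (circles) and each mre11 library (squares), with lines at the means of 2. WOX11 lies lower in mre11, CRL1 overlaps between genotypes, and the other 6 genes lie higher in both mre11 libraries than in both WT libraries.

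Among the regulators of crown root initiation, CRL5 (LOC_Os07g03250, chromosome 7) had 28 and 25 counts in WT and 149 and 204 counts in mre11, or 2.35 and 1.59 CPM against 7.20 and 11.6 CPM. Both mre11 libraries were at least 3.06 times the higher WT library, although the mre11 libraries themselves were well apart. CRL5 rose 4.79-fold in mre11 (95% interval 2.54 to 9.03, adjusted p = 0.00658 by edgeR). With WT replicate 2 left out, the adjusted p was 0.0545 at a log2 fold change of 1.98.

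WOX11 (LOC_Os07g48560, chromosome 7) had 100 and 187 counts in WT and 74 and 59 counts in mre11, which corresponded to 8.40 and 11.9 CPM against 3.57 and 3.35 CPM. The spread was in WT, and the lower WT library was still 2.35 times the higher mre11 library. WOX11 fell by 1.55 on the log2 scale (standard error 0.289, adjusted p = 0.00901 by edgeR), that is 2.93-fold lower with a 95% interval of 1.81 to 4.75. It was the only one of the 8 genes called lower. Without WT replicate 2, the value was -1.28 with an adjusted p of 0.0628.

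CRL1 (LOC_Os03g05510, chromosome 3) was close to the limit of detection, with 7 and 6 counts in WT and 10 and 4 counts in mre11. The libraries of the 2 genotypes overlapped, at 0.588 and 0.382 CPM in WT and 0.483 and 0.227 CPM in mre11. The filter on low counts removed it, so it had no test in the main fit. The ratio of the summed scaled counts was 0.776, with an exact Clopper-Pearson interval from 0.338 to 1.79 that covers counting error only, and a difference within this interval was not detectable at this depth.

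CRL5 and WOX11 thus moved in opposite directions, and their ratio within a library does not depend on how libraries are scaled. The RPKM of WOX11 was 3.61 and 7.56 times that of CRL5 in the WT libraries, and 0.501 and 0.292 times in the mre11 libraries. WOX11 exceeded CRL5 in both WT libraries and was below it in both mre11 libraries. Against SCR1, WOX11 had ratios of 1.54 and 2.34 in WT and 0.351 and 0.260 in mre11. The lengths behind the RPKM, computed from the counts and the RPKM, were 1419 bases for WOX11, 1433 for CRL5 and 2924 for SCR1. The size of these ratios rests on those lengths. Their fall from WT to mre11 does not. By counts WOX11 was below SCR1 in WT replicate 1 (100 against 134) and above it in WT replicate 2 (187 against 165).

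**Figure D2:**
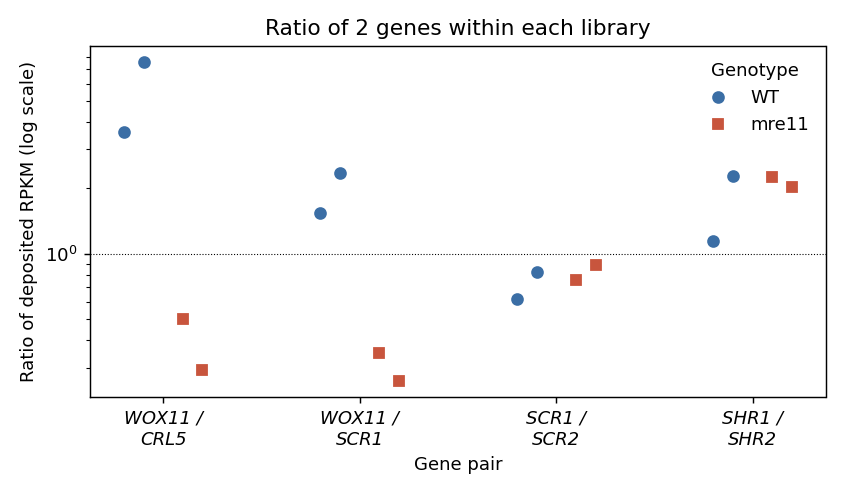
Ratio of the deposited RPKM of 2 genes within each library (log axis, dotted line at equal levels), for WT (circles) and mre11 (squares). The ratio of WOX11 to CRL5 falls from 3.61 and 7.56 to 0.501 and 0.292, whereas the ratios within the SCR pair and within the SHR pair overlap between genotypes.

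QHB (LOC_Os01g63510, chromosome 1), the gene of the quiescent centre, had 3 counts in each WT library against 22 and 17 counts in mre11. Both WT libraries were at the floor of 3 counts, taken as the limit of detection, and corresponded to 0.252 and 0.191 CPM against 1.06 and 0.966 CPM. From the summed counts of 6 and 39, the scaled ratio was 4.69 with an exact Clopper-Pearson interval of 1.97 to 13.5, which again covers counting error only. QHB was called higher in mre11 (log2 fold change 2.18, standard error 0.598, adjusted p = 0.0310 by edgeR). It passed the filter on low counts only through its mre11 libraries, so that it had to differ to be tested. The call was lost with DESeq2 (adjusted p = 0.119), with no filter (adjusted p = 0.0571) and with each of the 4 libraries left out (adjusted p from 0.127 to 0.173), although the log2 fold change remained between 1.97 and 2.36 in the last of these.

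Of the SCR pair, SCR1 (LOC_Os11g03110, chromosome 11) had 134 and 165 counts in WT and 434 and 467 counts in mre11. These were 11.3 and 10.5 CPM against 21.0 and 26.5 CPM, with the WT libraries close together. SCR1 rose 2.18-fold (95% interval 1.56 to 3.05, adjusted p = 0.00779 by edgeR), near the fold limit. It was not called without WT replicate 1 (adjusted p = 0.0538), without WT replicate 2 (adjusted p = 0.0643) or without mre11 replicate 2, where its log2 fold change was 0.941.

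SCR2 (LOC_Os12g02870, chromosome 12) had 184 and 170 counts in WT and 486 and 447 counts in mre11, or 15.5 and 10.8 CPM against 23.5 and 25.4 CPM. Here the WT libraries differed more than the mre11 libraries, and the genotypes did not overlap. The fitted fold change was 1.87 (95% interval 1.29 to 2.70, adjusted p = 0.0218 by edgeR), which passed the p threshold and missed the fold limit. Without WT replicate 1 it was called (log2 fold change 1.16, adjusted p = 0.0419), and without WT replicate 2 it missed both limits (0.652, adjusted p = 0.117). The difference between SCR1 and SCR2 in fold change was not tested, and their intervals overlap. The RPKM of SCR1 was 0.616 and 0.823 times that of SCR2 in WT, and 0.755 and 0.884 times in mre11. This order rests on the lengths behind the RPKM, 2924 bases for SCR1 and 2474 for SCR2, whereas the listed lengths are 3609 and 3586 bases. By counts SCR1 was the higher copy in mre11 replicate 2.

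SCR1 and SCR2 are a duplicated pair on chromosomes 11 and 12, and the treatment of reads that match both copies is not given in the sources used here. The division of counts between them is therefore uncertain, while their sum is not affected by reads counted on the wrong copy. Summed, the pair had 318 and 335 counts in WT and 920 and 914 counts in mre11. The sum rose 2.01-fold (adjusted p = 0.00741 by edgeR).

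Of the SHR pair, SHR1 (LOC_Os07g39820, chromosome 7) had 64 and 90 counts in WT and 285 and 260 counts in mre11. Both genotypes were tight after scaling, with 5.38 and 5.73 CPM in WT and 13.8 and 14.8 CPM in mre11. SHR1 rose 2.57-fold (95% interval 1.79 to 3.67, adjusted p = 0.00548 by edgeR). It was the only one of the 8 genes whose call held with each of the 4 libraries left out in turn, at log2 fold changes from 1.30 to 1.42 and adjusted p from 0.0091 to 0.0434.

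SHR2 (LOC_Os03g31880, chromosome 3) had 51 and 36 counts in WT and 115 and 117 counts in mre11, or 4.28 and 2.29 CPM against 5.55 and 6.65 CPM. WT replicate 1 lay closer to mre11 replicate 1 than to WT replicate 2, and the lower mre11 library was 1.30 times the higher WT library. The log2 fold change was 0.90 (standard error 0.379, 95% interval -0.0063 to 1.82), with an adjusted p of 0.105 by edgeR, so SHR2 was not called. The interval reaches from no difference to 3.52-fold, and a rise as large as that of SHR1 lies within it. The RPKM of SHR1 was 1.14 and 2.27 times that of SHR2 in WT and 2.25 and 2.02 times in mre11. Summed, the SHR pair had 115 and 126 counts in WT and 400 and 377 counts in mre11, a 2.31-fold rise (adjusted p = 0.00628 by edgeR).

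**Figure D3:**
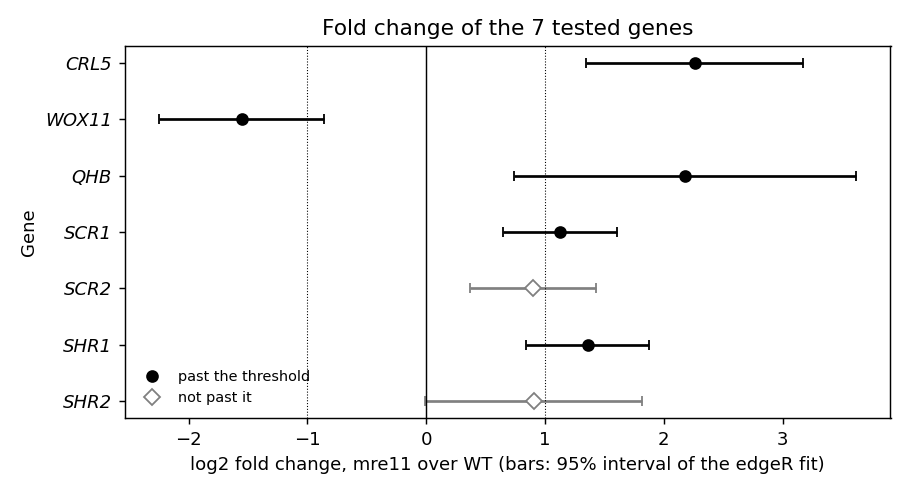
Log2 fold change (mre11 over WT) of the 7 tested genes with the 95% interval of the edgeR fit, and dotted lines at a 2-fold difference. Filled circles are called genes and open diamonds are not: WOX11 at -1.55 is the only value below 0, CRL5 and QHB are highest with QHB the widest, and the interval of SHR2 reaches 0.

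Per length, the order of the 8 genes differed between the genotypes. In WT, WOX11 was first at 6.77 ± 1.75 RPKM (SD, n = 2), followed by SCR2 at 5.0 ± 1.17 RPKM, and these neighbours overlapped. SCR1 at 3.51 ± 0.113 RPKM and SHR1 at 1.92 ± 0.113 RPKM came next, each apart from its neighbours. CRL5 at 1.29 ± 0.332 RPKM and SHR2 at 1.25 ± 0.523 RPKM overlapped, and CRL1 and QHB were lowest, at 0.585 ± 0.163 and 0.175 ± 0.0354 RPKM.

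In mre11, SCR2 was first at 10.4 ± 0.127 RPKM (SD, n = 2), above SCR1 at 8.55 ± 1.05 RPKM, with the same dependence on the lengths used. CRL5 came next at 6.88 ± 1.99 RPKM, and its range overlapped both that of SCR1 and that of SHR1 at 5.53 ± 0.0354 RPKM. SHR2 at 2.60 ± 0.219 RPKM and WOX11 at 2.58 ± 0.226 RPKM could not be told apart. QHB at 0.900 ± 0.0990 RPKM now lay above CRL1 at 0.485 ± 0.262 RPKM. CRL5 moved from rank 5 to rank 3 and WOX11 from rank 1 to rank 6. The places of both, and the overlaps of CRL5, rest on the lengths behind the RPKM, 1433 bases for CRL5 and 1419 for WOX11. The listed lengths are 4702 and 2645 bases, and the order by listed length was not computed. Among gene models with at least 1 count, the 8 genes lay between the 20.4th percentile (QHB) and the 60.5th (WOX11) in WT. In mre11 they lay between the 24.8th (CRL1) and the 66.8th (SCR2).

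Other genes of root development were read from lists. Of 11 loci of rice crown root, auxin transport and root growth work, 9 were tested, 1 was called higher and 0 lower, with a median log2 fold change of 0.03, as over all tested genes. The one called was LOC_Os02g35180, whose deposited KEGG entry is that of type-A response regulators, early targets and dampers of cytokinin signalling. It had 149 and 188 counts in WT and 1173 and 830 counts in mre11, or 12.5 and 12.0 CPM against 56.6 and 47.2 CPM, and rose 4.24-fold (adjusted p = 0.00122 by edgeR). In rice, WOX11 is known to repress and CRL5 to induce single type-A response regulators, not the family as a whole. That is background, and neither relation was tested here for this locus. Without a fold limit, 4483 of all 24470 tested genes passed as lower, and so did 2 of the 9 loci. One of them, LOC_Os02g50960, with the KEGG entry of PIN auxin efflux carriers, had 110 and 111 CPM in WT and 56.8 and 65.0 CPM in mre11 (log2 fold change -0.86, adjusted p = 0.00558 by edgeR), under the fold limit.

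Of the 38 tested loci with the GO term root development, 4 were called higher and 1 lower, or 13.2%, with a median of 0.15. They included LOC_Os04g48070, annotated as a transcription factor of the homeodomain-leucine zipper type, with 21 and 41 counts in WT against 158 and 130 in mre11, a 3.40-fold rise (adjusted p = 0.0085 by edgeR). The one called lower, LOC_Os04g35280, annotated with sucrose glucosidase activity, was 2.08-fold lower (adjusted p = 0.0133 by edgeR), and 0 loci of this list were called lower by either limma fit on log2 RPKM, with the library size alone, after upper-quartile scaling or at an adjusted p under 0.01. The 4 called higher became 2 without WT replicate 1. Of the 9 tested loci with terms of meristem or stem cell maintenance, 2 were called higher and 0 lower, with a median of -0.41. Only 1 was called higher with DESeq2, with the replicate block, with limma on log2(RPKM + 1), at an adjusted p under 0.01 and with each of the 4 libraries left out. For the 3 adventitious root loci, 0 were called by edgeR or DESeq2, and the median was -0.78. Without a fold limit 2 of these 3 passed as lower, as did 4483 of all 24470 tested genes. Of the 39 tested loci with terms of lateral root formation or development, 7 were called higher and 3 lower, or 25.6%, with a median of 0.39 that was -0.00692 without mre11 replicate 2.

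Of the 46 tested loci with the term response to auxin, 2 were called higher and 2 lower, or 8.70%, with a median of -0.18. The lowest was LOC_Os06g48200, annotated as a xyloglucan endotransglucosylase of the cell wall, with 446 and 487 CPM in WT and 84.1 and 88.6 CPM in mre11, 5.40-fold lower (adjusted p = 0.000856 by edgeR). None of these lists holds any of the 8 genes. The shares called in these lists ran from 0% to 25.6%, against the 21.3% of all tested genes, and the lists as a whole were not tested.

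The loci whose pattern over the 4 libraries was most like that of a called gene were found by the root mean square difference of log2 CPM deviations, a description over 4 values. For CRL5 the nearest was LOC_Os09g17660, with 21 and 19 counts in WT and 115 and 158 in mre11, at a difference of 0.0116. Only 5 of 20844 candidate loci lay within 0.1 of CRL5. For WOX11 the nearest was LOC_Os01g25670, with 37 and 72 counts in WT and 27 and 21 in mre11, at a difference of 0.0198, and 19 loci lay within 0.1. Patterns like those of SCR1 and SHR1 were more common, with 151 and 128 loci within 0.1, and QHB had 40.

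**Figure D4:**
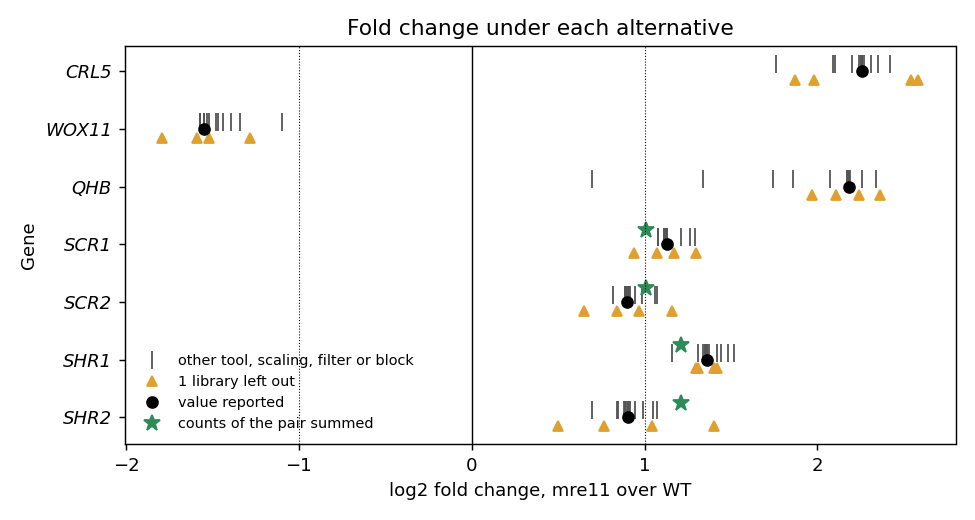
Log2 fold change of the 7 tested genes as reported (circles), with another tool, scaling, filter, prior count or replicate block (ticks), with 1 library left out (triangles), and with the counts of the SCR or SHR pair summed (stars). No value crosses 0 for any of the 7 genes, and QHB has the widest range, down to 0.693 with limma on log2(RPKM + 1).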

How the data were processed

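RNA-seq libraries of 7-day-old WT and mre11 rice seedlings, 2 per genotype, were analysed. The authors used the pseudomolecules and transcripts of rice, version 7.0, as reference, obtained read numbers per gene model with HTSeq 0.6.1 and deposited these raw counts. The aligner, the strand setting and the handling of multiply mapped reads are not given in the sources used here, so overlapping genes and close copies are uncertain. The authors also deposited RPKM values, used here to compare levels between genes. The length by which they divide was computed here from the counts, the RPKM and the summed counts of each library. It is close to the listed one for SHR1 and SHR2 and below it for the other genes.

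The counts were analysed with R 4.3.3 and edgeR 4.0.16 (filterByExpr, TMM, glmQLFit, glmQLFTest, genotype only, 24470 genes tested, common dispersion 0.0384). limma 3.58.1 and DESeq2 1.42.0 were alternatives. The scripts were tested on simulated data. Standard errors are the log2 fold change divided by the root of the F statistic. Intervals of count ratios are exact Clopper-Pearson intervals at 95%. PCR copies are not independent molecules, so they cover counting error only. A floor of 3 counts per library corresponds to 0.158 to 0.235 CPM before scaling.

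The 8 genes and all lists were chosen with earlier results of these data known. The text names the 8 genes, for called genes the nearest locus in pattern, and at most 2 called loci per list and direction. LOC_Os02g50960 and the single marker loci were named after their values were seen. Gene names come from the definition of the set. In the RefSeq table (assembly ASM3414082v1), 6 of the 8 names were found, all on the same chromosome as the locus, and 0 of the 55986 identifiers matched, so no sequence or coordinate was used. The alternatives are other scalings, filters, thresholds, tools, prior counts, a replicate block, summed pairs and each library left out. Thinning the counts to the smallest library was added after the data had been seen. The second series table, which repeats the same values, was not used.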

Additional observations from a re-analysis of the deposited data

How the results depend on the processing

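Every fit with a test kept the direction of all 7 tested genes. CRL5, WOX11, SCR1 and SHR1 kept their call in all alternatives that used the 4 libraries. Their own log2 fold changes were 1.76 to 2.42, -1.57 to -1.10, 1.08 to 1.29 and 1.16 to 1.52. Dropping the fold limit could not remove a call, and the other prior counts left the adjusted p unchanged. The cause of each change below was not tested unless stated. QHB was not called with DESeq2 (2.19), with no filter (2.18, adjusted p = 0.0571), with a replicate block (2.17, adjusted p = 0.0604), at an adjusted p under 0.01 (2.18) or with limma on log2(RPKM + 1) (0.693, by construction of the pseudocount), and the filter of 1 CPM in 2 libraries removed it. SCR2 was called with the library size alone (1.06), without a fold limit (0.90) and with limma on log2(RPKM + 0.1) (1.07). The sum of SCR1 and SCR2 was also called (1.01). Without WT replicate 1, the value of SCR2 was 1.16. SHR2 alone was not called in any fit, while the sum of SHR1 and SHR2 was called (1.21). CRL1 had a value only with no filter (-0.398, adjusted p = 0.791).

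With 1 library left out, log2 fold changes ran from 1.87 to 2.58 for CRL5, from -1.79 to -1.28 for WOX11, from 1.97 to 2.36 for QHB, from 0.941 to 1.30 for SCR1, from 0.652 to 1.16 for SCR2, from 1.30 to 1.42 for SHR1 and from 0.50 to 1.40 for SHR2. The lone sample is then assumed to vary like the other genotype. The number of the 8 genes called higher ran from 1 to 3 and lower from 0 to 1, and over all genes from 1668 to 2626 higher and from 1493 to 2275 lower. With no fold limit 4594 genes were higher and 4483 lower, at an adjusted p under 0.01 1614 and 1493, and limma on log2(RPKM + 1) called 1336 lower. Called genes were 2930 higher and 2277 lower after TMM, but 3795 and 1711 with the library size alone, where the median log2 fold change of all genes was 0.193 instead of 0.0299. The median of the 11 crown root and root growth loci changed sign without WT replicate 1 (-0.192) and without mre11 replicate 1 (-0.167).

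The replicate numbers are shared between genotypes. Across all tested genes, same-numbered libraries did not deviate together (r = -0.00353, over genes that are not independent). The summed shoot-enriched level did, with replicate 2 the higher in WT (9535 and 15730 CPM) and in mre11 (14590 and 24300 CPM). With the replicate block, 2736 genes were higher and 2231 lower, and of the 8 genes QHB alone changed its call.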

Other observations

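The deposited GO and KEGG annotation did not always match the genes examined. The entry at WOX11 was that of a proton-transporting ATPase, and the terms at SCR2 included deoxyxylulose phosphate reductoisomerase activity, so the roles given here were not taken from it. The GO terms of lateral root formation or development also held a different family. Of 39 tested loci, 10 were called, or 25.6%, against 21.3% of all tested genes. Of the 39, 20 carried the KEGG entry of glutathione S-transferases, enzymes that conjugate glutathione to reactive compounds, and these gave 6 of the 7 higher and 1 of the 3 lower. Among the other 19 loci, 1 was higher and 2 were lower.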
